A study of Mus musculus with 9 samples.

Results

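The genes described here are 8 secreted antagonists of Wnt signalling, *Sfrp1*, *Sfrp2*, *Sfrp4*, *Sfrp5*, *Frzb*, *Wif1*, *Dkk2* and *Dkk3*, followed in regenerating tibialis anterior muscle of young and aged mice. They were taken by symbol from 54532 genes counted in 9 RNA-seq libraries, and each matched 1 row. The genes were chosen by their levels in all 9 libraries as well as by their role, so those levels and the differences between groups are given as a description, with no test of the 8 genes. The study asked whether Meteorin-like (METRNL), a secreted protein, given to aged muscle alters its regeneration. All mice were C57/BL6J, and all muscles were injured with BaCl2, a salt that destroys muscle fibres. The young PBS group (4 months) and the old PBS group (24 months) received 3 injections of PBS, immediately and 24 h and 48 h after the injury. The old rMETRNL group (24 months) received recombinant METRNL on the same schedule, at a dose that the study's results give as 0.1 ug and its methods as 0.1 ng. There was no uninjured group and no young rMETRNL group. Per the labels the RNA came from a digested and strained suspension of muscle cells, and the series description gives day 4, whereas the study's text gives whole muscle at day 8. Each group held 3 libraries, with the numbers 2, 3 and 4 in the old PBS group and 1, 2 and 3 in the others.

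Wnt proteins are secreted lipid-modified ligands that bind Frizzled receptors and, in the branch that stabilises beta-catenin, the co-receptors LRP5 and LRP6. Secreted antagonists act outside the cell. The secreted Frizzled-related proteins (SFRP family, which includes *Frzb*, also called *Sfrp3*) carry a Frizzled-like cysteine-rich domain and bind Wnts, WIF1 binds Wnts through its own WIF domain, and DKK proteins as a family are known for binding LRP5 and LRP6, an activity not established for the divergent member DKK3. In skeletal muscle, stromal cells between the fibres are a known source of several of them, and Wnt signalling is known to affect satellite cell fate and fibrosis during repair.

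The 250 bases before the start that RefSeq annotates (GRCm38.p6) were read for the members that had an entry, *Sfrp2*, *Sfrp5*, *Frzb*, *Dkk2* and *Wif1*. *Sfrp1*, *Sfrp4* and *Dkk3* had none. The gene coordinates given further below come from another annotation, by which most of the *Frzb* window and the end of the *Wif1* window lie inside the gene. Those of *Frzb*, *Dkk2* and *Wif1* are shown because these genes were lowest in old PBS 3, and that of *Sfrp2* because it was highest there. Each is written 5′ to 3′ on the gene's own strand, and capitals mark matches on either strand to the TATA box (letters TATAAA), the CCAAT box (named by its letters), the GC box (letters GGGCGG) or a TCF/LEF motif (letters CTTTGAT). In *Dkk2* the reverse CCAAT match and a GC box lie side by side and form 1 run of capitals.
Sfrp2, chr3:83766071-83766320, plus strand: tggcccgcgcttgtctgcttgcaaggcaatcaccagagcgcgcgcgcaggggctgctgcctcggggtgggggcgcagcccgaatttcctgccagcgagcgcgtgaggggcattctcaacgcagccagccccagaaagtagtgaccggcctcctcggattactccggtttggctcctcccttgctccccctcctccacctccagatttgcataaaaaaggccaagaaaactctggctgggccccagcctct
Frzb, chr2:80447397-80447646, minus strand: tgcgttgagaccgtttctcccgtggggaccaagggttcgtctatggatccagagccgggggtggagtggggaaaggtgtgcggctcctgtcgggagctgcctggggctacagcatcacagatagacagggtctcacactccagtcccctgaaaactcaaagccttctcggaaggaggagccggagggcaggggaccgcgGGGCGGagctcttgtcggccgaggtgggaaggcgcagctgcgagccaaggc
Dkk2, chr3:132085042-132085291, plus strand: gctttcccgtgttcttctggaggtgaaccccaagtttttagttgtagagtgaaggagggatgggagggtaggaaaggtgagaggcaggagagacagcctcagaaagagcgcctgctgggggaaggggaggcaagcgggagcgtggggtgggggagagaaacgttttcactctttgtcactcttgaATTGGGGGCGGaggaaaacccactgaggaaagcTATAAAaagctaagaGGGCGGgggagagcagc
Wif1, chr10:121033754-121034003, plus strand: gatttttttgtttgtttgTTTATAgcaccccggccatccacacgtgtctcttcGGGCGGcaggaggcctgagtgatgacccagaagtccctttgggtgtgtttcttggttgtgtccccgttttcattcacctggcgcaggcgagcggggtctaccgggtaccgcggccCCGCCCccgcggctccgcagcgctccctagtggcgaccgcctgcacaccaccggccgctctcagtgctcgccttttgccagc

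None of the 5 windows held CTTTGAT or its reverse complement, which 3.21% of 32841 windows of the same length held. The GC box stood in the windows of *Sfrp5*, *Frzb*, *Dkk2* and *Wif1*, against 32.7% of all windows. *Dkk2* held TATAAA beginning 32 bases before the start, and *Wif1* held it on the other strand at 232 bases, against 12.4% of all windows. CCAAT was found in *Dkk2* alone among the 5, against 33.9% of all windows. The windows held 16 CpG dinucleotides in *Sfrp2*, 16 in *Frzb*, 13 in *Sfrp5*, 7 in *Dkk2* and 21 in *Wif1*, and the median of all windows was 6. A match or its absence in these bases says nothing about which factors bind there.

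On GRCm38, *Sfrp1* (ENSMUSG00000031548) lies at chr8:23411502-23449632, *Sfrp2* (ENSMUSG00000027996) at chr3:83766321-83774316, *Sfrp4* (ENSMUSG00000021319) at chr13:19623104-19632994 and *Sfrp5* (ENSMUSG00000018822) at chr19:42197971-42202252. *Frzb* (ENSMUSG00000027004) lies at chr2:80411970-80447625, *Wif1* (ENSMUSG00000020218) at chr10:121033960-121100650, *Dkk2* (ENSMUSG00000028031) at chr3:132085292-132180304 and *Dkk3* (ENSMUSG00000030772) at chr7:112116017-112159057. The longest exact stretch that transcripts of any pair of members shared was 27 bases, between *Sfrp4* and *Frzb*. Exons of *Sfrp2* overlap those of the antisense gene *Gm26771* by 347 bases. The strand setting of the counting is not given in the sources used here, so reads of that overlap cannot be assigned with certainty, and *Gm26771* itself held between 0 and 2 counts.

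The libraries held 16238700 to 22522560 counts, and 3 counts, taken as the floor, correspond to 0.133 to 0.185 CPM (counts scaled to library size), which covers counting error only. Replicates of a group differed by more than sampling noise (chi-square per degree of freedom of 11.9 at the least). Libraries of the old PBS group stood apart in several marker lists. The 8 brain genes summed to 110.6, 49.7 and 123.3 CPM in old PBS 2, 3 and 4 and to 3.45 to 5.32 CPM in the other 6 libraries, where *Mobp*, *Snap25* and *Nefl* were at 0 counts. The 6 liver genes summed to 8.88 to 82.5 CPM in old PBS and to at most 0.462 CPM elsewhere. New muscle fibre genes (embryonic and perinatal myosins, *Actc1*, *Mymk*) summed to 4404 CPM in old PBS 3, against 524 CPM in old PBS 4 and 1142 CPM in old PBS 2. Muscle itself was plain in every library, with mature fibre genes at 64001 to 107241 CPM in sum. In bulk RNA, fewer cells of a type and less RNA per cell cannot be told apart.

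All 8 antagonists were detected in all 9 libraries and passed the filter on low counts in all 3 comparisons. Per kilobase of exon, the mean level over the 9 libraries ran from *Sfrp2* (9.72 CPM per kb) through *Dkk3* (8.06), *Sfrp1* (6.48), *Sfrp4* (5.96), *Frzb* (3.34), *Dkk2* (3.29) and *Sfrp5* (1.24) to *Wif1* (0.648). In young PBS muscle *Sfrp2* led with 8.76 ± 0.81 CPM per kb (SD, n = 3), and it stood above *Dkk3* (6.22 ± 0.83 CPM per kb) by more than both SDs together. *Dkk3*, *Sfrp1*, *Sfrp4*, *Frzb* and *Dkk2* followed without a gap between neighbours larger than both SDs together, and *Sfrp5* (1.02 ± 1.02 CPM per kb) and *Wif1* (0.815 ± 0.157 CPM per kb) lay below them. In old PBS muscle *Dkk3* came first with 13.1 ± 7.19 CPM per kb, and the spread of the leading genes was too wide to order them. In old rMETRNL muscle *Sfrp2* came first again (10.7 ± 2.57 CPM per kb), followed by *Sfrp4* (8.66 ± 2.29), *Sfrp1* (7.79 ± 2.90) and *Dkk3* (4.85 ± 1.92).

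**Figure D1:**
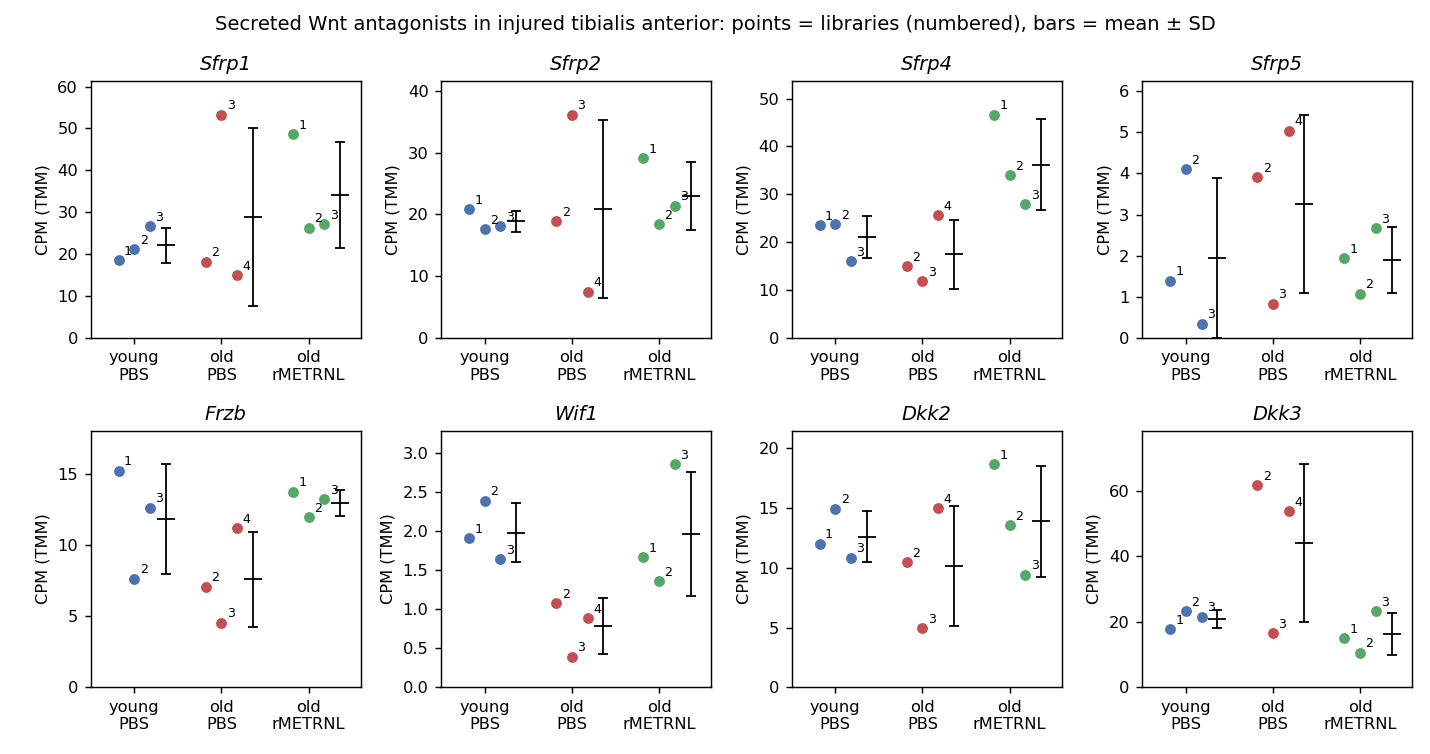
Level of each of the 8 secreted Wnt antagonists in each library, as TMM-normalized CPM on an axis that starts at 0. Points are libraries with their numbers, bars are the mean ± SD of 3 libraries and are cut at 0. The rMETRNL libraries lie above all old PBS libraries for Sfrp4, Frzb and Wif1, and old PBS 2 and 4 lie above all others for Dkk3.

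*Sfrp4*, a Wnt-binding SFRP expressed by stromal cells, measured 23.5, 23.7 and 16.0 CPM in young PBS 1, 2 and 3. It measured 15.0, 11.9 and 25.6 CPM in old PBS 2, 3 and 4. In old rMETRNL 1, 2 and 3 it measured 46.7, 34.0 and 27.9 CPM. All 3 rMETRNL libraries were above every old PBS and every young PBS library, while the PBS groups of both ages overlapped. The log2 difference was 1.05 ± 0.30 (SE, 3 against 3 libraries) for old rMETRNL against old PBS, 0.78 ± 0.20 against young PBS, and −0.28 ± 0.30 for old PBS against young PBS. The first of these is a 2.07-fold higher level.

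*Frzb*, the SFRP known from cartilage and developing muscle, measured 15.3, 7.66 and 12.6 CPM in young PBS. It measured 7.08, 4.55 and 11.2 CPM in old PBS and 13.8, 12.0 and 13.3 CPM in old rMETRNL. The rMETRNL libraries were close together and above all 3 old PBS libraries, and young PBS overlapped both. On the log2 scale the differences were 0.78 ± 0.30 for old rMETRNL against old PBS, −0.65 ± 0.37 for old PBS against young PBS and 0.14 ± 0.22 for old rMETRNL against young PBS.

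*Wif1*, whose product binds Wnts outside the SFRP family, was the lowest member, with 9 to 63 counts a library, so its values carry the largest counting error beside those of *Sfrp5*. It measured 1.91, 2.39 and 1.64 CPM in young PBS, 1.08, 0.394 and 0.881 CPM in old PBS and 1.66, 1.36 and 2.85 CPM in old rMETRNL. The old PBS libraries lay below every library of both other groups. The log2 difference was −1.36 ± 0.46 for old PBS against young PBS, 1.35 ± 0.49 for old rMETRNL against old PBS and close to 0 (SE 0.35) for old rMETRNL against young PBS. Both of the first 2 comparisons share the old PBS libraries, so they are not separate evidence.

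*Dkk2*, a DKK that binds LRP6, measured 12.0, 14.9 and 10.8 CPM in young PBS, 10.4, 4.94 and 15.0 CPM in old PBS and 18.7, 13.5 and 9.42 CPM in old rMETRNL. Its groups overlapped in all 3 comparisons. The log2 differences were −0.33 ± 0.36 for old PBS against young PBS and 0.46 ± 0.39 for old rMETRNL against old PBS. The lowest of the 9 values of *Sfrp4*, *Frzb*, *Wif1* and *Dkk2* was in each case that of old PBS 3.

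*Sfrp4*, *Frzb*, *Wif1* and *Dkk2* were set beside fibro-adipogenic cells, the stromal progenitors of muscle, through a list of 9 marker genes. The summed level of the list was 2048 to 2676 CPM in young PBS, 1825 to 3065 CPM in old PBS and 2439 to 3331 CPM in old rMETRNL, and no gene of it was at 0. Within old PBS the list was lowest in library 3 (1825 CPM) and highest in library 4 (3065 CPM), the order that *Sfrp4*, *Frzb* and *Dkk2* also had at both ends. The mean log2 CPM of the list was higher by 0.42 for old rMETRNL against old PBS, and 8 of its 9 genes were higher. None of the 9 was called by edgeR or DESeq2, and 5 had an unadjusted p under 0.05 by edgeR, against 8.07% of all genes. The rise was not particular to this list. All 6 macrophage genes and all 5 endothelial genes were higher too. The median log2 difference was 0.53 and 0.46 in these lists, and 0.41 in the fibro-adipogenic list. An alternative added after the values were seen took the antagonists relative to the fibro-adipogenic list within each library. The log2 difference between old rMETRNL and old PBS was then 0.68 for *Sfrp4*, 0.45 for *Frzb*, 0.95 for *Wif1* and 0.12 for *Dkk2*. The groups then remained apart for *Sfrp4*, and no longer for *Frzb* and *Wif1*. The sum of 7 tendon genes was also lowest in old PBS, at 209 to 257 CPM. It was 301 to 631 CPM in young PBS and 333 to 395 CPM in old rMETRNL. The largest part was *Thbs4*, with means of 302, 142 and 252 CPM in young PBS, old PBS and old rMETRNL. *Scx* alone of the 7 went the other way in both comparisons with old PBS, with means of 10.8, 13.2 and 8.34 CPM. DESeq2 called *Tnmd*, *Thbs4* and *Kera* in both, against 1.42% and 1.78% of the genes it adjusted, and edgeR called none. The part of tendon in the *Frzb* and *Wif1* values was not tested, nor was that of macrophages or endothelium in the antagonist values.

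*Sfrp1* and *Sfrp2*, which bind Wnts and are expressed by mesenchymal cells of many tissues, had like patterns across the libraries. *Sfrp1* measured 18.5, 21.1 and 26.6 CPM in young PBS, 18.2, 53.3 and 15.0 CPM in old PBS and 48.7, 26.3 and 27.1 CPM in old rMETRNL. *Sfrp2* measured 20.9, 17.6 and 18.1 CPM in young PBS, 18.9, 36.2 and 7.49 CPM in old PBS and 29.2, 18.5 and 21.4 CPM in old rMETRNL. Both were highest in old PBS 3 and lowest in old PBS 4, so the old PBS group spanned the whole range of the other groups. The log2 difference for old PBS against young PBS was 0.39 ± 0.44 for *Sfrp1* and 0.15 ± 0.46 for *Sfrp2*. Without old PBS 3 these became −0.42 and −0.52, so the direction rested on that library. For old rMETRNL against old PBS the differences were 0.23 ± 0.46 for *Sfrp1* and 0.13 ± 0.46 for *Sfrp2*, and without old PBS 3 they were 1.04 and 0.80. Against young PBS, old rMETRNL differed by 0.62 ± 0.23 for *Sfrp1* and 0.29 ± 0.17 for *Sfrp2*, with overlapping groups. New fibre genes were also highest in old PBS 3 and lowest in old PBS 4. Satellite cell and myoblast genes summed to 166 CPM in old PBS 3 and 55.7 CPM in old PBS 4, but also to 165 CPM in old rMETRNL 2, where *Sfrp1* was at 26.3 CPM and *Sfrp2* at 18.5 CPM. The part of these cells in the *Sfrp1* and *Sfrp2* values was not tested.

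*Sfrp5*, an SFRP known from adipose tissue, was low and scattered, with 6 to 80 counts a library. It measured 1.39, 4.11 and 0.339 CPM in young PBS, 3.91, 0.831 and 5.04 CPM in old PBS and 1.93, 1.08 and 2.67 CPM in old rMETRNL. Every pair of groups overlapped, and the log2 differences had the widest errors of the 8 genes, at 0.72 ± 0.84 for old PBS against young PBS and −0.76 ± 0.61 for old rMETRNL against old PBS. Without young PBS 2, its highest young library, the difference for old PBS against young PBS was 1.89, and that for old rMETRNL against young PBS went from −0.03 to 1.14. The 4 adipocyte genes summed to 34.0, 53.5 and 11.1 CPM in young PBS, 20.6, 81.9 and 43.0 CPM in old PBS and 70.1, 36.9 and 19.3 CPM in old rMETRNL. The young PBS libraries had the same order for this list and for *Sfrp5*, and the libraries of the other groups did not. The part of adipocytes in the *Sfrp5* values was not tested.

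*Dkk3*, the divergent DKK, measured 17.8, 23.3 and 21.6 CPM in young PBS. In old PBS 2, 3 and 4 it measured 61.7, 16.5 and 53.8 CPM. In old rMETRNL it measured 15.0, 10.6 and 23.3 CPM. Old PBS 2 and 4 were far above the other 7 libraries, and old PBS 3 was below all 3 young PBS libraries, so the groups overlapped. The log2 difference was 1.07 ± 0.42 for old PBS against young PBS, a 2.10-fold higher level, and −1.43 ± 0.46 for old rMETRNL against old PBS. Old rMETRNL against young PBS differed by −0.35 ± 0.24. Without old PBS 3 the first of these was 1.46 and the second −1.82.

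*Dkk3* was high in the same old PBS libraries in which brain and nerve sheath genes were highest. All 8 brain genes were higher in old PBS than in young PBS. EdgeR called 3 of them and DESeq2 7, against 0.0643% and 1.42% of all genes. Their sum was 110.6 and 123.3 CPM in old PBS 2 and 4, but old PBS 3 also held 49.7 CPM of brain genes with *Dkk3* at 16.5 CPM, within the 10.6 to 23.3 CPM of the 6 libraries where *Mobp*, *Snap25* and *Nefl* were at 0. Schwann cell and perineurium genes summed to 63.7 and 72.1 CPM in old PBS 2 and 4, to 25.6 CPM in old PBS 3 and to 14.3 to 29.2 CPM in the other libraries, with no gene of the list at 0 throughout a group. Mature fibre genes were likewise highest in old PBS 2 and 4, at 103802 and 107241 CPM, and lowest in old PBS 3, at 64001 CPM, against 83006 to 98087 CPM in the other 6 libraries. The part of these cells and fibres in the *Dkk3* values was not tested.

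**Figure D2:**
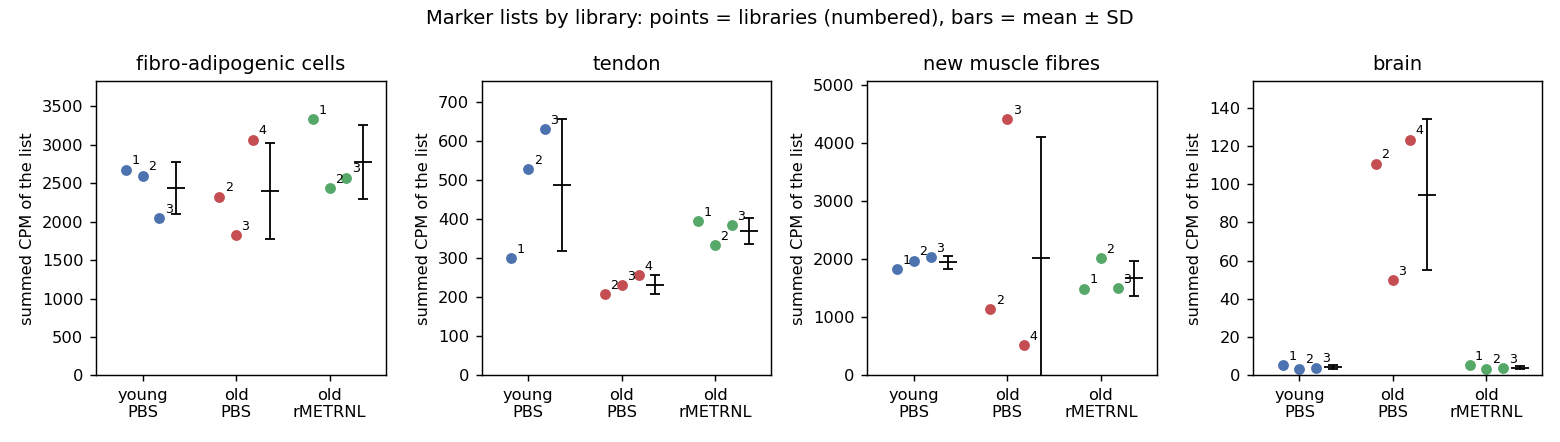
Summed CPM of 4 marker lists in each library, on axes that start at 0. Points are libraries with their numbers, bars are the mean ± SD of 3 libraries and are cut at 0. Brain genes are high in the old PBS libraries alone, and old PBS 3 is highest for new muscle fibre genes and lowest for fibro-adipogenic genes.

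Likeness between patterns was measured as the root mean square difference of log2 CPM, centred on each gene's mean of the 9 libraries, where a smaller value means a closer pattern. The closest members were *Sfrp1* and *Sfrp2* at 0.35, followed by *Sfrp4* and *Dkk2* (0.36), *Sfrp4* and *Frzb* (0.43), *Frzb* and *Dkk2* (0.44) and *Frzb* and *Wif1* (0.53). *Dkk2* and *Wif1* lay at 0.61, above the median distance of other genes from *Dkk2* (0.59) and below that from *Wif1* (0.77). *Sfrp4* and *Wif1* lay at 0.64, and the median distance from *Sfrp4* was also 0.64. The farthest pair was *Sfrp1* and *Sfrp5* at 1.48. *Sfrp5* and *Dkk3* were both high in old PBS 2 and 4, but *Sfrp5* was also high in young PBS 2, where *Dkk3* was near its mean. Among the members *Sfrp5* came nearest to *Dkk3* (0.86). That was above the median distance of other genes from *Dkk3* (0.84) and below that from *Sfrp5* (1.14). These values describe 9 libraries that share their depth, normalization and cell make-up, and no test was made of them.

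**Figure D3:**
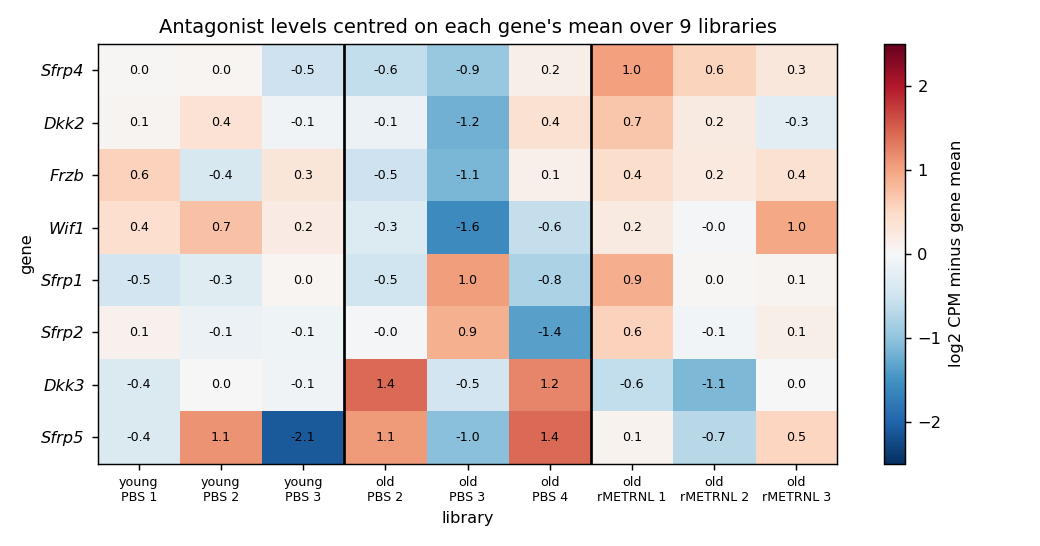
Log2 CPM of each antagonist minus its mean over the 9 libraries, as a colour and a printed value. Rows are genes and columns are libraries. Sfrp4, Dkk2, Frzb and Wif1 are lowest in old PBS 3, and Sfrp1 and Sfrp2 are highest there. Dkk3 and Sfrp5 are high in old PBS 2 and 4, and Sfrp5 also in young PBS 2.

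Among 16116 other genes, the nearest to *Sfrp4* were *Pi16* (0.26), *Pf4* (0.26) and *Sap18b* (0.26). *Pi16* is on the fibro-adipogenic list used above, and *Pf4* and *Sap18b* are on none of the marker lists. No cell type is read from these neighbours. *Dkk2* was nearest to *Igfbp6* (0.21), *Cd209a* (0.23) and *Pcsk6* (0.24). *Frzb* was nearest to *A730063M14Rik* (0.23), *Smco4* (0.23) and *8430422M14Rik* (0.24), and *Wif1* to *Zfp433* (0.24), *Gm49313* (0.38) and *Cilp2* (0.38). The nearest to *Sfrp2* were *Cip2a* (0.16), *Fancd2* (0.20) and *Col28a1* (0.22), and to *Sfrp1* *Zfp90* (0.24), *Cd22* (0.24) and *Pde11a* (0.24). *Dkk3* was nearest to *Stk26* (0.20), *Stab2* (0.24) and *Epha7* (0.25), and *Sfrp5* to *Zic1* (0.39), *Dazl* (0.42) and *Cyp2e1* (0.43). The median over all genes lay between 0.59 for *Dkk2* and 1.14 for *Sfrp5*, so the scale differs by member.

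The count of members called was 0 of 8 in each comparison by the quasi-likelihood test of edgeR, adjusted over all genes by the Benjamini-Hochberg method. For old PBS against young PBS the test called 0.0643% of 15560 genes, and 2 of the 8 members had an unadjusted p under 0.05, against 5.91% of all genes. For old rMETRNL against old PBS it called 0.108% of 15682 genes, and 4 of 8 members had an unadjusted p under 0.05, against 8.07% of genes. For old rMETRNL against young PBS it called 0 of 15396 genes (0%), and 2 of 8 members had an unadjusted p under 0.05, against 2.41% of genes. DESeq2 called 0, 1 and 0 of the 8 in the same order, the 1 being *Dkk3*, lower in old rMETRNL than in old PBS, against 1.42%, 1.78% and 0% of the genes it adjusted. Groups did not overlap for *Wif1* in old PBS against young PBS, where 5.25% of genes were lower without overlap. They did not overlap for *Sfrp4*, *Frzb* and *Wif1* in old rMETRNL against old PBS, where 6.95% of genes were higher without overlap, nor for *Sfrp4* in old rMETRNL against young PBS (3.92%). Since the members were put together with these levels known, nothing is read from these counts. The median log2 difference of the 8 was −0.06, 0.34 and 0.14 in the 3 comparisons, and that of all genes tested 0.01, −0.01 and 0.00.

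**Figure D4:**
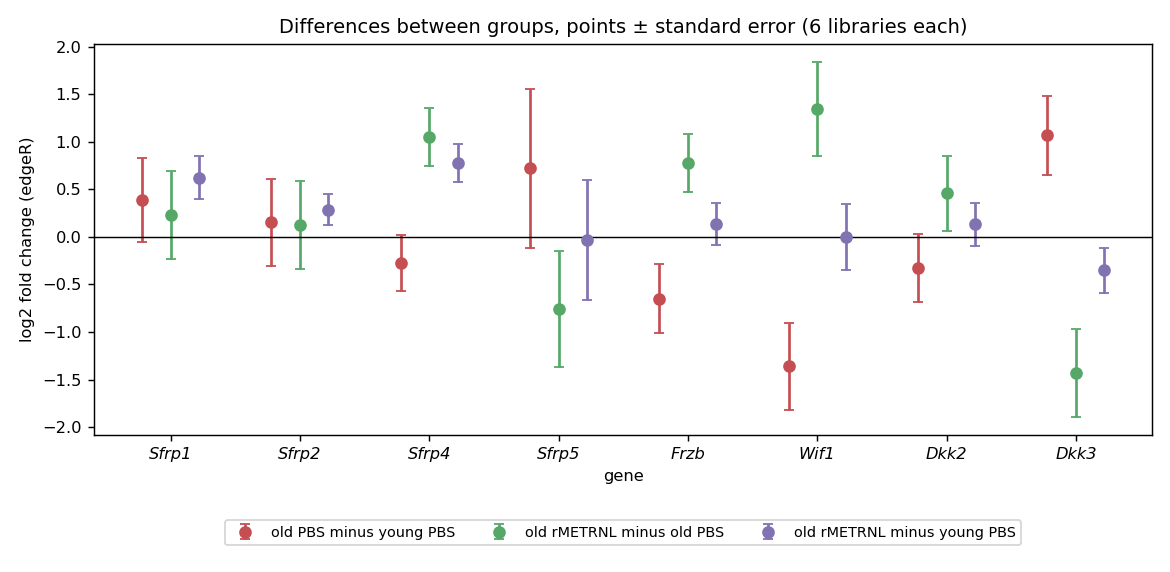
Log2 fold change of each antagonist in the 3 comparisons, from edgeR, with points at the estimate and bars of 1 standard error. The estimates farthest from 0 are those of Dkk3 and Wif1 in the comparisons with old PBS and of Sfrp4 in old rMETRNL against old PBS, and Sfrp5 has the widest bars. Old PBS enters both of the first comparisons.

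Wnt pathway genes outside the 8 were taken as 85 genes in 7 lists by role, of which 63, 63 and 61 had enough counts for a test in the 3 comparisons. By edgeR, 0 passed the threshold in every comparison. An unadjusted p under 0.05 was found for 4, 3 and 4 of them, against 5.91%, 8.07% and 2.41% of all genes tested. DESeq2 called 1 gene, *Wnt4*, in old rMETRNL against old PBS, and 0 in the other comparisons. The median log2 difference of the 85-gene lists together was −0.08 for old PBS against young PBS, 0.07 for old rMETRNL against old PBS and −0.05 for old rMETRNL against young PBS.

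Of the other secreted antagonists, only *Igfbp4*, an IGF-binding protein that also binds LRP6 and Frizzled, was abundant, at 69.6 CPM per kb over the 9 libraries. It measured 253 to 302 CPM in young PBS, 195 to 418 CPM in old PBS and 262 to 500 CPM in old rMETRNL. *Dkk1*, *Dkk4*, *Sost*, *Sostdc1* and *Dkkl1* stayed under 1 CPM in every library, *Notum* reached at most 0.849 CPM and *Draxin* at most 1.27 CPM, and *Cer1* had 0 counts throughout. None of the 2 or 3 genes tested from this list was called in any comparison.

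*Kremen1*, a receptor that binds DKK proteins and removes LRP6 from the surface, led the membrane inhibitors at 12.3 CPM per kb. It measured 82.9 to 104.7 CPM in young PBS, 77.7 to 131.9 CPM in old PBS and 76.3 to 101.9 CPM in old rMETRNL, and its log2 differences were 0.11 ± 0.22, −0.21 ± 0.23 and −0.10 ± 0.14. *Kremen2* stayed under 1 CPM. *Znrf3*, a ubiquitin ligase that removes Frizzled, and *Apcdd1* and *Trabd2b*, membrane inhibitors of Wnt signalling, each differed by at most 0.37 on the log2 scale in any comparison.

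Among the Wnt ligands the highest per kb were *Wnt11* (5.42), *Wnt9a* (5.10), *Wnt4* (2.90) and *Wnt5a* (1.37). *Wnt4* measured 9.71, 13.2 and 5.19 CPM in young PBS, 20.4, 7.83 and 33.9 CPM in old PBS and 3.38, 5.78 and 10.2 CPM in old rMETRNL. Like *Dkk3*, it was highest in old PBS 2 and 4. For old rMETRNL against old PBS its log2 difference was −1.67 ± 0.53 (adjusted p = 0.414 by edgeR and 0.0295 by DESeq2), with overlapping groups. *Wnt11* and *Wnt9a* differed by at most 0.14 on the log2 scale in all 3 comparisons. *Wnt3a* had 0 counts in every library.

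Among the Wnt receptors, *Fzd10*, a Frizzled, measured 5.66, 4.55 and 5.31 CPM in young PBS, 3.30, 2.41 and 0.881 CPM in old PBS and 4.93, 6.23 and 5.07 CPM in old rMETRNL. The old PBS libraries lay below all others, and neither difference passed the threshold (log2 −1.23 ± 0.43, edgeR adjusted p = 0.684, for old PBS against young PBS, and 1.29 ± 0.42, edgeR adjusted p = 0.428, for old rMETRNL against old PBS). *Ryk* (15.4 CPM per kb), *Fzd4* (13.4), *Fzd7* (9.46) and the co-receptor *Lrp6* (8.81) were the most abundant. *Lrp6* differed by at most 0.02 on the log2 scale in the 3 comparisons, with SEs of 0.12 to 0.25. *Fzd7* was lower in all 3 rMETRNL libraries (34.6 to 41.2 CPM) than in young PBS (42.4 to 51.1 CPM), at −0.30 ± 0.12, with an edgeR adjusted p near 1. *Fzd3* was lower in old rMETRNL than in every old PBS library, at −0.91 ± 0.35 (edgeR adjusted p = 0.546).

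The R-spondin *Rspo2*, which raises the level of Frizzled at the surface, measured 0.809, 1.94 and 5.87 CPM in young PBS, 0.472, 1.01 and 0.063 CPM in old PBS and 0.643, 0.849 and 0.634 CPM in old rMETRNL. Its log2 difference was −2.41 ± 0.89 for old PBS against young PBS (edgeR adjusted p = 0.721) and −2.02 ± 0.61 for old rMETRNL against young PBS, where no gene passed the threshold. *Wls*, needed for Wnt secretion, and *Porcn*, the enzyme that adds the lipid, differed by at most 0.28. *Rspo3* and *Lgr4*, an R-spondin receptor, differed by at most 0.54.

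Inside the cell, *Ctnnb1* (beta-catenin, 45.0 CPM per kb), *Dvl1* (33.5), *Csnk1a1* (27.5) and *Gsk3a* (16.5) were the most abundant. *Ctnnb1* measured 240 to 257 CPM in young PBS, 198 to 234 CPM in old PBS and 235 to 244 CPM in old rMETRNL, a log2 difference of −0.21 ± 0.17 for old PBS against young PBS. Of the Wnt target genes, *Axin2*, a feedback inhibitor induced by beta-catenin, measured 12.3 to 15.5 CPM in young PBS, 12.5 to 19.4 CPM in old PBS and 12.1 to 13.3 CPM in old rMETRNL, with log2 differences of 0.07 ± 0.22, −0.23 ± 0.21 and −0.15 ± 0.14. *Ccn4* measured 11.0 to 31.3 CPM in young PBS, 2.52 to 16.1 CPM in old PBS and 13.2 to 16.4 CPM in old rMETRNL, and its difference of −1.21 ± 0.61 for old PBS against young PBS did not pass the threshold (edgeR adjusted p = 0.928). *Ccnd1* and *Myc* differed by at most 0.46. *Sp5* had 0 counts.

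**Figure D5:**
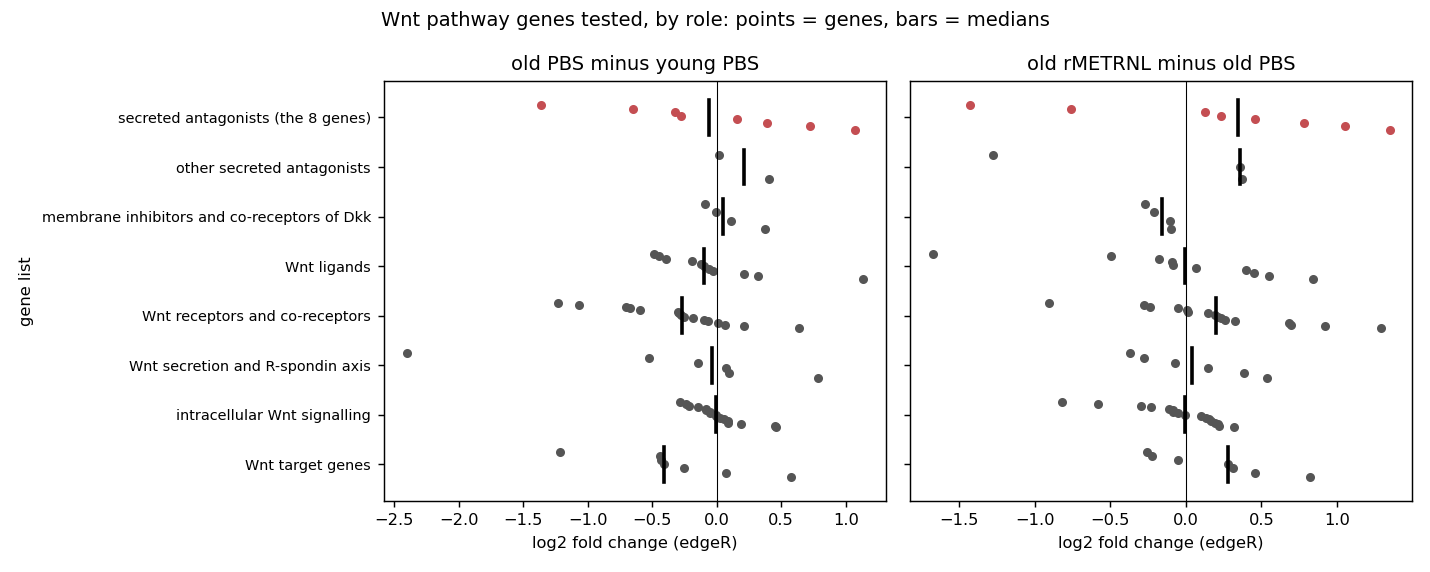
Log2 fold change of the 8 antagonists (red) and of the tested genes of 7 Wnt pathway lists (grey), for old PBS minus young PBS (left) and old rMETRNL minus old PBS (right). Points are genes and bars are list medians. Most genes of the lists lie within 1 log2 unit of 0, and none passed edgeR's threshold in either comparison.

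Old PBS 3 decided several of these calls. Without it, edgeR called *Dkk3* higher (adjusted p = 0.00881) in old PBS than in young PBS, and for old rMETRNL against old PBS it called *Dkk3* lower (adjusted p = 0.00552) and *Sfrp1* higher (adjusted p = 0.0427). Among the pathway genes it then called *Fzd2* and *Ptk7*, both receptors, lower in the old of the PBS groups, at −1.29 ± 0.26 and −1.89 ± 0.29. For old rMETRNL against old PBS it called *Fzd2*, *Ptk7* and *Ccn4* higher and *Wnt4*, *Rnf43*, *Lgr4* and *Pygo1* lower. The number of genes called over the whole table was 401 and 1560 in these comparisons without that library, against 10 and 17 with it. With the library kept, 15560 and 15682 genes were tested, among them 63 genes of the pathway lists in each comparison. Calls thus rose over the whole table as well as in these lists, and nothing is read about the pathway from the genes named. The members of these short lists were named after their values were seen.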

How the data were processed

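RNA was measured in 9 libraries of injured mouse muscle. Per the methods, paired-end reads came from NEBNext Ultra libraries, and the submitters' processing notes name STAR, featureCounts and mm9 without versions. The authors deposited raw counts, 1 whole number per Ensembl gene and library, not normalized. The annotation and strand setting are not given in the sources used here. Symbols, exon lengths and coordinates came from GENCODE on GRCm38 (54495 of 54532 genes matched), and no coordinate was converted from the authors' build.

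Groups were set by the age and treatment labels and compared in pairs on 6 libraries, in R 4.3.3 with edgeR 4.0.16 (filterByExpr, TMM, glmQLFit and glmQLFTest, Benjamini-Hochberg adjustment over all genes tested, threshold 0.05). CPM used TMM factors, and for likeness the log2 CPM had a prior count of 2. DESeq2 1.42.0, which the study used, was an alternative. The fit was tested on counts simulated from the old rMETRNL and young PBS libraries only, so that test does not cover the wider spread of the old PBS group. Replicates are separate libraries of mice, and p-values measure the spread between them. No batch or date is labelled.

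The 8 members and all lists were chosen with earlier results of these data known. Named pathway genes are, in each list, the up to 4 with the highest level per kb and the up to 3 with the lowest p in any comparison. Genes at or near 0 and those called only in an alternative were named after their values were seen. Other marker lists tried covered cartilage, macrophages, endothelium, pericytes and smooth muscle, choroid plexus, B and plasma cells and skin keratinocytes. Alternatives were DESeq2 size factors, no filter, at least 10 counts in every library, 1 fit over the 9 libraries, a block for the replicate number, and each library left out.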

Additional observations from a re-analysis of the deposited data

How the results depend on the processing

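The count of all genes called by edgeR was 10 for old PBS against young PBS, 17 for old rMETRNL against old PBS and 0 for old rMETRNL against young PBS. Without a filter on low counts it was 354, 740 and 132, and with at least 10 counts in every library 3, 1 and 0. DESeq2's test gave 265, 354 and 0, and a fit of all 9 libraries 63, 71 and 0. With each library left out in turn it ranged from 2 to 401, from 3 to 1560 and from 0 to 1. With no filter 0, 2 and 2 antagonists were called (*Sfrp4* higher and *Dkk3* lower in old rMETRNL than in old PBS, *Sfrp1* and *Sfrp4* higher in old rMETRNL than in young PBS) and 0, 3 and 1 pathway genes. That fit also gave smaller errors. For old rMETRNL against old PBS the SE was 0.22 for *Sfrp4* and 0.23 for *Dkk3*, against 0.30 and 0.46 with the filter. DESeq2 called 1 antagonist and 1 pathway gene, both in old rMETRNL against old PBS. Leaving out libraries, 0 to 1, 0 to 2 and 0 antagonists and 0 to 2, 0 to 7 and 0 pathway genes were called. The highest counts for the first 2 comparisons came without old PBS 3. The cause was not tested. DESeq2's size factors changed none of these counts. Wherever more antagonists or pathway genes were called, more genes were called over the whole table as well. Nothing is therefore read about either from these counts.

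The number of antagonists whose groups did not overlap was 1, 3 and 1. In alternatives added after the values were seen, it ranged with 1 library left out from 1 to 4, from 3 to 6 and from 1 to 3. Smaller groups overlap less easily for any gene, and the share of all genes apart was not counted with a library left out. Nothing is therefore read about the antagonists from these ranges. Relative to the fibro-adipogenic list the number was 1 for old rMETRNL against old PBS. With 1 library left out, log2 differences of *Sfrp4* and *Dkk3* kept their sign in all 3 comparisons. Those of *Frzb*, *Wif1* and *Sfrp5* kept it in both comparisons with old PBS. Those of *Sfrp1* and *Sfrp2* kept it only in old rMETRNL against young PBS, and that of *Dkk2* only in old rMETRNL against old PBS. *Sfrp5*, with the widest errors, was thus among the genes that kept it, and nothing is read from a kept sign.

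The replicate number as a block gave 11, 65 and 0 genes called, 0 antagonists and 0 pathway genes. Deviations of same-numbered libraries correlated at 0.11 and 0.41, at −0.05 and −0.32, and at 0.02, −0.05 and −0.18 in the 3 comparisons, so the numbers were not taken as a pairing. Depth limits *Wif1* and *Sfrp5* most.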

Other observations

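The remaining marker lists had these summed levels. Macrophage genes summed to 1333 to 1588 CPM in young PBS, 1018 to 1315 CPM in old PBS and 1457 to 1731 CPM in old rMETRNL, and endothelial genes to 316 to 392, 205 to 331 and 307 to 420 CPM. In both lists none of the genes was called by edgeR or DESeq2 in any comparison. For old rMETRNL against old PBS 3 of 6 macrophage genes and 2 of 5 endothelial genes had an unadjusted p under 0.05 by edgeR, against 8.07% of all genes. Pericyte and smooth muscle genes summed to 455 to 640 CPM over the 9 libraries, cartilage genes to 1.88 to 8.86 CPM and B and plasma cell genes to 3.27 to 9.68 CPM. Choroid plexus genes summed to 4.51 to 7.21 CPM in old PBS and to at most 1.63 CPM elsewhere. Keratinocyte genes summed to 73.9 CPM in young PBS 2 and to at most 5.04 CPM in the other libraries. In that library *Sfrp5*, *Sfrp4*, *Wif1*, *Dkk2* and *Dkk3* were at their highest of young PBS and *Frzb* and *Sfrp2* at their lowest, with *Sfrp5* at 4.11 CPM against 1.39 and 0.339 CPM in the others. Leaving out young PBS 2 changed the call of no antagonist.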
